A study of Homo sapiens with 6 samples.

Results

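The 42 genes described here are transcribed around 2 stages of the cell division cycle. Of them, 19 act in or just before DNA replication (S phase) and 23 act in mitosis (M phase). They were chosen by symbol from a fixed list and not by a cut on their measured values, although earlier results of these data were known. All 42 were found among the 57773 genes of the count table. All 42 also passed the filter on low counts, which left 22010 genes for testing. The RNA came from HEK293 cells, an established line derived from human embryonic kidney and transformed with adenovirus DNA. The sgZNF146 group was transiently transfected with Cas9 plasmids (PX459) that carried 4 guides against the zinc finger gene ZNF146, and sgZNF507 with 4 guides against ZNF507. The EV group received an empty vector plasmid and is labelled Cas9-EV. All 3 groups were selected with puromycin for 36 h and grown out to 2 weeks, so they share the drug and the outgrowth. The cells were populations and not clones, and each group had 2 biological replicates.

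Cells duplicate their DNA once per division. In G1, CDC6 and CDT1 load the MCM2-7 helicase onto replication origins, and cyclin E with CDK2 and the E2F transcription factors start S phase, in which CDC45 and the GINS complex join MCM2-7 to form the active helicase. Mitotic genes are transcribed later, in G2 and M, when cyclin B with CDK1 drives entry into mitosis, the Aurora and Polo kinases build the spindle, and the anaphase-promoting complex, with CDC20 and UBE2C, marks cyclin B and securin (PTTG1) for destruction. In proliferating lines transcripts of both kinds are abundant, and a shift in the share of cells in each stage would move the S genes and the M genes as separate blocks. In RNA from whole cultures, fewer cells in a stage and less RNA per cell cannot be told apart.

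Library totals ranged from 22724439 to 28524025 counts, and the 42 genes took between 0.679% and 0.717% of them. Single counts of members ran from 291 to 19199. Replicates of a group differed beyond counting error, with a chi-square of 6.86 to 10.3 per degree of freedom over genes. ZNF507 was lower in sgZNF507 than in EV by a log2 fold change of -0.62 ± 0.07 (SE; adjusted p = 0.00195, edgeR quasi-likelihood test), whereas ZNF146 in sgZNF146 differed from EV by -0.13 ± 0.08 (adjusted p = 1.00). ZNF146 was lower than EV in sgZNF507 as well, by -0.21 ± 0.08, also without passing, so its value in sgZNF146 was not particular to that group. A cut by Cas9 need not lower the transcript, so the level is only an indirect check of either target. The authors report almost no signal of either protein by western blot after its disruption, and reads with indels at the guide sites. Markers of the line were present in every library, with VIM at 1012 to 1147 CPM (counts scaled to the size of the library), CDH2 at 146 to 171 and NEFM at 66.3 to 77.5. Of 8 markers of other cell types found in the table, HBB was at 0 counts in every library, PTPRC and ALB did not exceed 6 counts, and the 3 fibroblast genes summed with the rest to 74.4 to 91.2 CPM, most of it COL1A1. The epithelial markers EPCAM and CDH1 stood at 1.23 to 1.85 and 5.33 to 7.37 CPM.

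The 42 genes were among the more highly expressed in EV. Levels between genes are compared as reads scaled to library size and to each kilobase of the canonical transcript (RPKM). In EV 41 of the 42 lay above the median of the 14744 tested protein-coding genes, which was 7.15 RPKM, and the median member was at the 89.5th percentile. The S genes had a median of 55.7 RPKM and the M genes of 34.0 RPKM. The highest member lay 32.8 times above the lowest.

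The 3 highest were subunits of the replicative helicase. MCM7 (ENSG00000166508, chr7:99689856-99699563 in GRCh37) had 211 and 207 RPKM in the 2 EV libraries. MCM3 followed with 149 and 145 RPKM and MCM2 with 148 and 143 RPKM, and the values of these 2 overlapped. MCM7 also hosts the microRNA genes MIR106B, MIR25 and MIR93 on its strand, and AP4M1 overlaps it on the opposite strand. Although MCM2 to MCM7 form one ring, their transcripts were far from equal: MCM7 held between 28.9% and 29.5% of the summed RPKM of the 6 subunits, and MCM6 held between 5.48% and 5.92%. By canonical transcript length, MCM7 had the largest and MCM6 the smallest share in all 6 libraries. Neither rank is kept with union exon length, which is 4960 bases for MCM7, 3645 for MCM3, 4135 for MCM6 and 7268 for MCM5. At the other end, CCNE2 (cyclin E2) had 6.14 and 6.61 RPKM, CDC25C, the phosphatase that activates CDK1, had 10.1 and 9.64 RPKM, and CENPE, a kinetochore motor protein, had 11.3 and 11.7 RPKM. CCNE2 alone was below the protein-coding median. Of the 41 pairs of neighbours in the order of levels, 22 overlapped between their EV libraries, so that the order is fixed only in coarse steps.

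**Figure D1:**
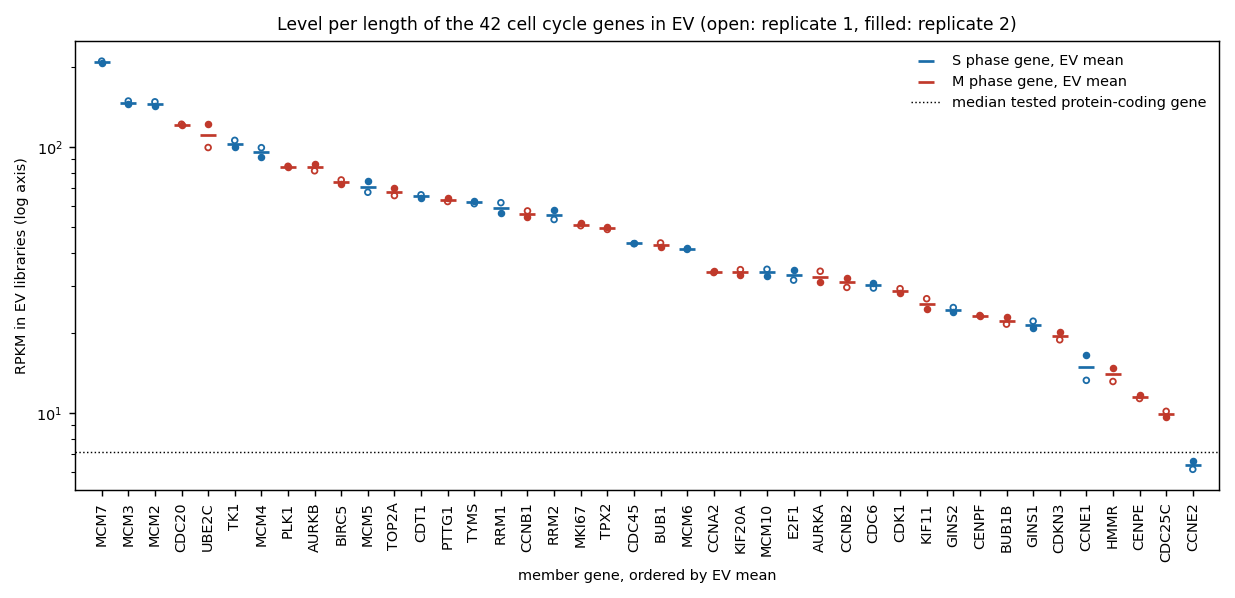
Level of each member in the 2 EV libraries in RPKM on a log axis, ordered by the mean (dash), with open circles for replicate 1 and filled circles for replicate 2, S genes in blue and M genes in red. MCM7, MCM3 and MCM2 lead at 209 to 146 RPKM, and CCNE2, at 6.38 RPKM, is the one gene under the dotted line at 7.15 RPKM, the median of tested protein-coding genes.

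Across the 6 libraries the members varied little. Their coefficients of variation ran from 1.74% for BIRC5 (survivin, a subunit of the chromosomal passenger complex) to 11.3% for CCNE2, with a median of 4.28%. For the 9188 tested genes in the same range of CPM the median was 5.16%. These genes share only the limits of the range, 16.1 to 664 CPM, and were not matched to the members by level within it. BIRC5 lay between 186 and 194 CPM in all libraries. MCM6 lay between 148 and 157 CPM and KIF20A, a kinesin of cytokinesis, between 103 and 108 CPM. The 4 most variable members were CCNE2, CCNE1, CENPE and HMMR, whose highest library was 1.40, 1.35, 1.37 and 1.32 times the lowest.

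The members also share promoter words that were not used to choose them. RefSeq promoters of GRCh38.p14, each 250 bases before to 50 bases after the annotated start, were found for 35 members, 16 of the S genes and 19 of the M genes. They were searched on both strands for E2F cores (TTGGCGC or TTCGCGC or TTCCCGC or TTGCCGC), the cell cycle homology region or CHR (TTTGAA or TTCGAA), and the CCAAT box (CCAAT). An E2F core was present in 11 of 16 S promoters and 3 of 19 M promoters, beside 13.1% of all 27305 promoters. The CHR was present in 2 of 16 S promoters and 12 of 19 M promoters, beside 16.6% of all. A CCAAT box was present in 11 of 16 S promoters and 16 of 19 M promoters, beside 35.7% of all, and CHR and CCAAT box stood together in 11 of 19 M promoters, beside 6.58% of all. E2F cores and CCAAT boxes can share letters. A word in the window is a description and not a bound site.

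The promoters of 4 members are printed. CDT1, TOP2A and CENPE are 3 of the 4 members that passed the test between replicate numbers described later, with the fourth, UBE2C, not among the 35, and CDK1 had the smallest unadjusted p between the disrupted groups without passing the adjusted threshold. Capitals mark the searched words, as they stand on the strand of the gene, so that a word matched on the opposite strand appears reversed and complemented (GCGGGAA stands for TTCCCGC, the letters ATTGG mean CCAAT, and the letters TTCAAA mean TTTGAA). The window of CDT1, the licensing factor, holds a pair of E2F cores, at -35 to -29 and -23 to -17 from the start. CDK1, the mitotic kinase, holds a CHR, a CCAAT box and a pair of E2F cores, the latter at -28 to -22 and 21 to 27. TOP2A, the topoisomerase that untangles sister chromatids, holds 4 CCAAT boxes and 2 CHR words. CENPE holds none of the searched words.
CDT1 (chr16:88803539-88803838, plus strand): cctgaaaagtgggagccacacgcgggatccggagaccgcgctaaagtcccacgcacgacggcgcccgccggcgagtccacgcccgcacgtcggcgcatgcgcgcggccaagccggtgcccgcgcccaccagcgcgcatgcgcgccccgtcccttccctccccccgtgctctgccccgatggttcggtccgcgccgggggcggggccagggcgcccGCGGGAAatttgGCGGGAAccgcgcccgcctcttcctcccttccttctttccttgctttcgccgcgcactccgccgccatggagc
CDK1 (chr10:60778081-60778380, plus strand): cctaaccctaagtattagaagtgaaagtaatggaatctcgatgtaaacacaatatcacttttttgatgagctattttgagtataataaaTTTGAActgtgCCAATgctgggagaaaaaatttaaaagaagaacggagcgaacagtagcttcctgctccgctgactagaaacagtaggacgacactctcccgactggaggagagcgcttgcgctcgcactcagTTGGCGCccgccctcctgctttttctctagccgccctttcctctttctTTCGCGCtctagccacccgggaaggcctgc
TOP2A (chr17:40417847-40418146, minus strand): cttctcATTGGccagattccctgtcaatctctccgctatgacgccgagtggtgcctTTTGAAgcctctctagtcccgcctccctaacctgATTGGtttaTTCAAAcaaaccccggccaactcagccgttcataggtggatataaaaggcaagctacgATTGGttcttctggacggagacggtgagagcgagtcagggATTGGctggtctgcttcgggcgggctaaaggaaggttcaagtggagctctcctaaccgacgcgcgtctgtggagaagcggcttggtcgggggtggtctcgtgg
CENPE (chr4:103198294-103198593, minus strand): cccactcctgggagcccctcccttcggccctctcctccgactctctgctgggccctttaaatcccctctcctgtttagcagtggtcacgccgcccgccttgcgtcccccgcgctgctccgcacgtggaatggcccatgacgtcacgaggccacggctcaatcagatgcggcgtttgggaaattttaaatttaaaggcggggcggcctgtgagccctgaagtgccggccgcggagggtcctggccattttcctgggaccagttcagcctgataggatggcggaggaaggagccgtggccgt

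**Figure D2:**
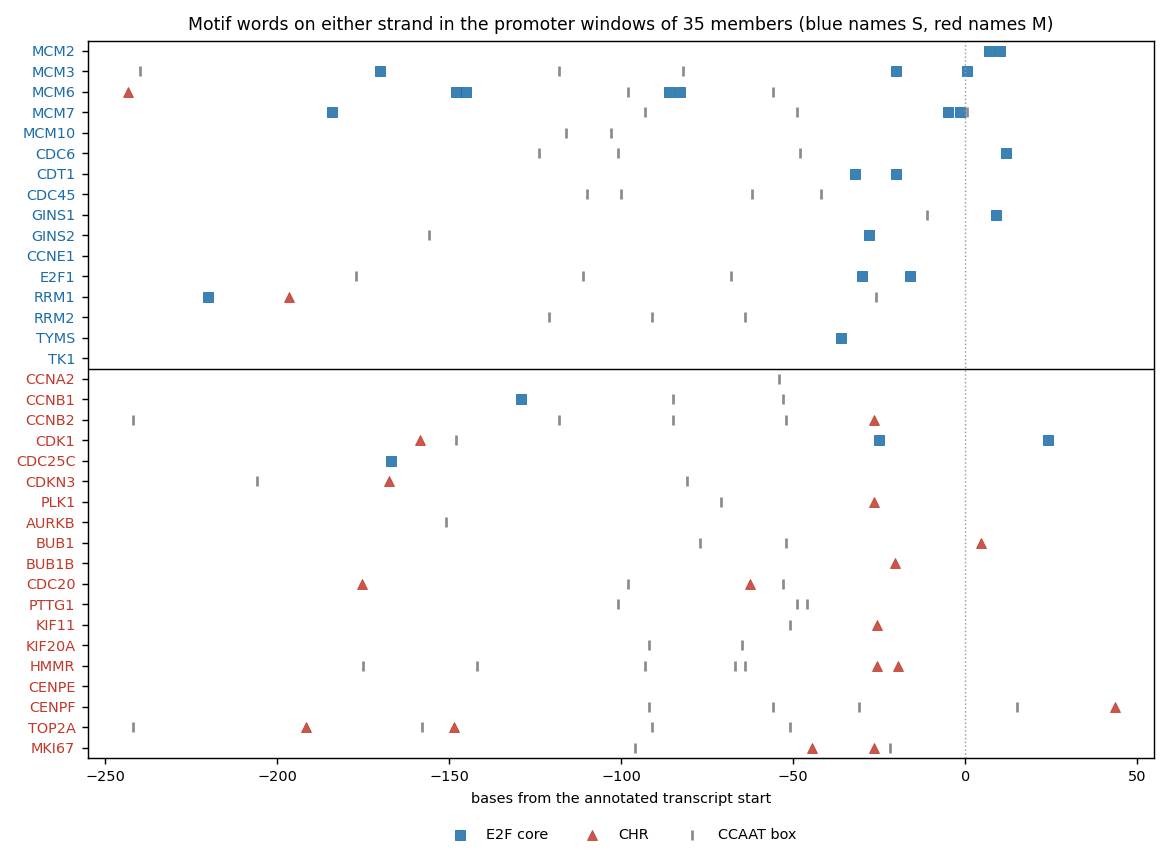
Position of each searched word in the promoter windows of 35 members, in bases from the annotated start (dotted line), with E2F cores as blue squares, CHR words as red triangles and CCAAT boxes as grey bars. Blue squares fill the upper block of S genes (11 of 16 promoters) and red triangles the lower block of M genes (12 of 19).

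The first comparison asked what disruption of ZNF507 did to these genes. None of the 42 passed an adjusted p of 0.05 in sgZNF507 against EV (edgeR quasi-likelihood test over all 22010 genes, of which 0.182% passed), and the count was 0 with DESeq2 too. None had an unadjusted p under 0.05, beside 3.39% of all genes. The 2 libraries of one group lay entirely above or below the other in 6 members, 4 higher in sgZNF507 and 2 lower, where 29.3% of all genes did so. The median log2 fold change was 0.01 over the S genes and 0.00049 over the M genes, beside -0.0032 over all genes. Without sgZNF507 replicate 2 the medians were 0.06 and -0.03, and without sgZNF507 replicate 1 they were -0.0090 and 0.03. With the replicate block in edgeR 2 members had an unadjusted p under 0.05, beside 1687 of all 22010 genes. No member passed an adjusted p of 0.05 in that fit. With GC content and transcript length regressed out the M median was 0.02.

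The intervals bound how large a change could be. Taken 1 gene at a time, the 95% interval lay within a 1.25-fold change in either direction for 38 members and within 1.5-fold for all 42. Over all genes tested, 8296 and 13240 of 22010 had intervals within these limits. The median half-width for the members was 0.15 on the log2 scale. The 4 members whose interval reached past 1.25-fold were CCNE2, HMMR, CENPE and CDKN3, with CCNE2 the widest.

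The 5 largest differences in this comparison were CCNE2, HMMR, CENPE, CDT1 and PTTG1. CCNE2 had 16.4 and 17.7 CPM in EV and 12.6 and 17.3 CPM in sgZNF507, a log2 fold change of -0.18 (95% interval -0.48 to 0.11). HMMR, a spindle-associated hyaluronan receptor, had 39.6 and 44.7 CPM in EV and 33.8 and 42.6 CPM in sgZNF507, or -0.14 (-0.37 to 0.09). CENPE had 96.9 and 100.1 CPM in EV and 80.1 and 99.6 CPM in sgZNF507, or -0.13 (-0.34 to 0.08). In all 3, sgZNF507 replicate 1, the shallowest library, lay below both EV libraries, while replicate 2 lay between them. CDT1 had 176 and 172 CPM in EV and 201 and 176 CPM in sgZNF507, again with replicate 1 apart, for 0.11 (-0.05 to 0.28). PTTG1 (securin) had 44.7 and 46.2 CPM in EV and 51.8 and 45.6 CPM in sgZNF507, for 0.10 (-0.08 to 0.28).

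By role, the 12 genes of replication licensing and the fork helicase had log2 fold changes from -0.05 to 0.11, with 7 above 0. The 4 genes of nucleotide supply (RRM1 and RRM2 of ribonucleotide reductase, TYMS and TK1) ran from -0.10 to 0.05. The 6 mitotic cyclins and CDK1 regulators ran from -0.06 to 0.08, and the 6 mitotic kinases and checkpoint genes, among them PLK1, AURKA, AURKB, BUB1 and BUB1B, from -0.03 to 0.07. PLK1 shows the scale of these values, with 183 and 181 CPM in EV and 181 and 179 CPM in sgZNF507. Its libraries did not overlap, and its log2 fold change was -0.02.

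**Figure D3:**
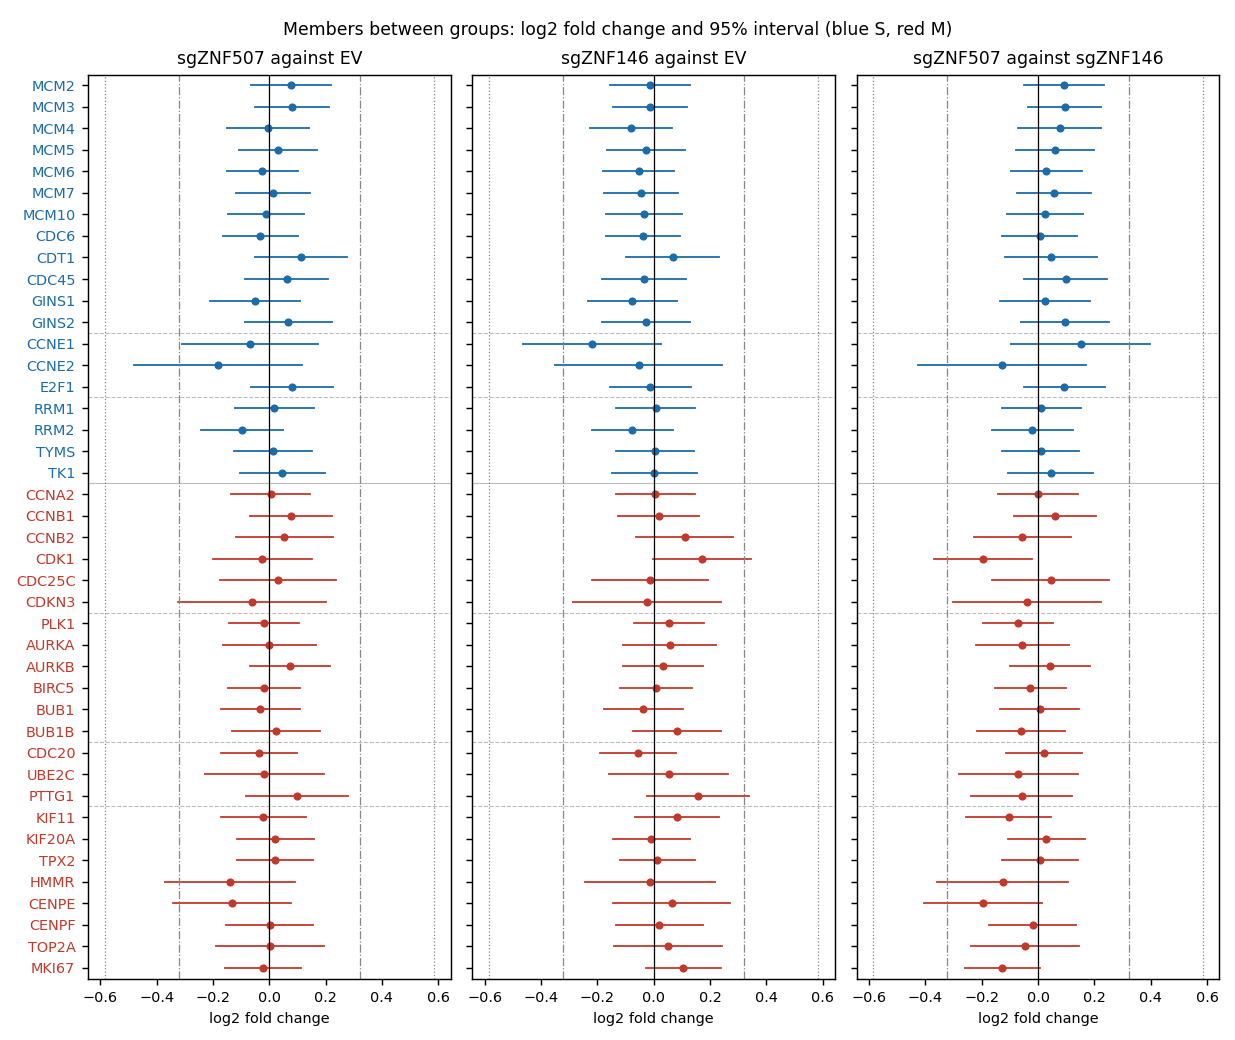
Log2 fold change of each member (point) with its 95% interval (line) in the 3 comparisons between groups, S genes in blue and M genes in red, grouped by role with dashed lines, and limits of 1.25-fold (dash-dotted) and 1.5-fold (dotted). All 42 intervals lie within 1.5-fold in each panel, and in sgZNF507 against sgZNF146 the blue points lie mostly right of 0 and the red mostly left.

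The second comparison asked the same of ZNF146. None of the 42 passed an adjusted p of 0.05 in sgZNF146 against EV, and neither did any other gene (0%, 0 of 22010 by edgeR and 0 by DESeq2 on 6 libraries). At an unadjusted p under 0.05 there were 0 members and 535 genes, or 2.43% of all. The libraries did not overlap in 8 members, 5 higher and 3 lower in sgZNF146, beside 28.6% of all genes. The intervals lay within 1.25-fold for 38 members and within 1.5-fold for all 42. The median log2 fold change was -0.03 over the S genes, with 4 of 19 above 0, and 0.03 over the M genes, with 17 of 23 above 0, beside -0.0013 over all genes. Without sgZNF146 replicate 2 these medians were -0.01 (8 of 19 above 0) and 0.0020 (13 of 23 above 0), and without sgZNF146 replicate 1 they were -0.06 (0 of 19 above 0) and 0.07 (17 of 23 above 0). With the replicate block in edgeR 3 members, in place of 0, had an unadjusted p under 0.05, beside 1197 of all 22010 genes. In that fit 33 genes and no member passed an adjusted p of 0.05.

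The largest differences were CCNE1, CDK1, PTTG1, CCNB2 and MKI67. CCNE1 (cyclin E1) had 26.0 and 32.2 CPM in EV and 23.8 and 26.2 CPM in sgZNF146, so that the groups overlapped, with a log2 fold change of -0.22 (95% interval -0.46 to 0.02). CDK1 (ENSG00000170312, chr10:62538089-62554610 in GRCh37) had 55.5 and 53.6 CPM in EV and 58.6 and 64.3 CPM in sgZNF146, or 0.17 (-0.0017 to 0.35). Both sgZNF146 libraries were above both EV libraries for CDK1. PTTG1 had 44.7 and 46.2 CPM in EV and 49.4 and 51.9 CPM in sgZNF146, or 0.16 (-0.02 to 0.34). CCNB2 (cyclin B2), which shares its strand with an overlapping gene, had 44.2 and 48.1 CPM in EV and 49.1 and 50.6 CPM in sgZNF146, or 0.11 (-0.06 to 0.28). MKI67, which encodes the proliferation marker Ki-67, had 644 and 658 CPM in EV and 696 and 704 CPM in sgZNF146, or 0.10 (-0.03 to 0.24). The last 4, all M genes, did not overlap between the groups, and none passed the test (adjusted p = 1.00 for each, edgeR).

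The third comparison set both disruptions against each other. None of the 42 passed an adjusted p of 0.05 in sgZNF507 against sgZNF146, where 0.173% of all genes did, and DESeq2 also called 0. One member, CDK1, had an unadjusted p under 0.05, beside 4.03% of all genes. CDK1 had 50.9 and 56.2 CPM in sgZNF507 and 58.6 and 64.3 CPM in sgZNF146, a log2 fold change of -0.20 (95% interval -0.37 to -0.02; adjusted p = 1.00, edgeR). The groups did not overlap in 12 members, 8 of them S genes that were higher in sgZNF507 and 4 of them M genes that were lower, beside 32.1% of all genes.

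Here the S and M genes lay on opposite sides of 0. The S genes had a median log2 fold change of 0.05, with 17 of 19 above 0, and all 12 licensing and helicase genes lay between 0.01 and 0.10. MCM3 had 489 and 466 CPM in sgZNF507 and 448 and 447 CPM in sgZNF146, and MCM7 had 533 and 507 CPM in sgZNF507 and 506 and 495 CPM in sgZNF146. Both were higher in sgZNF507 without overlap, by 0.09 and 0.06 on the log2 scale. The M genes had a median of -0.05, with 7 of 23 above 0. MKI67, at 619 and 663 CPM in sgZNF507, had -0.13 (-0.26 to 0.01), KIF11, the kinesin that separates the spindle poles, had -0.10 (-0.25 to 0.04), and CENPE had -0.19 (-0.40 to 0.01). The 2 cyclin E genes differed in sign, with 0.15 for CCNE1 (-0.09 to 0.40) and -0.13 for CCNE2 (-0.43 to 0.17).

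This split depended on single libraries. Without sgZNF146 replicate 2 the medians were 0.01 for the S genes (12 of 19 above 0) and -0.02 for the M genes (10 of 23 above 0). Without sgZNF507 replicate 1 they were 0.04 and -0.0014 (15 of 19 and 11 of 23 above 0). Without sgZNF507 replicate 2 they were 0.09 and -0.05, and without sgZNF146 replicate 1 they were 0.09 and -0.07. Each of these 4 fits left a group with a single library, so only the medians are given for them here. With the replicate block in edgeR 3 members had an unadjusted p under 0.05, beside 1911 of all genes tested. No member was called in that fit. With GC content and transcript length regressed out the medians were 0.05 and -0.03.

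The summed levels show which libraries stood out. The 19 S genes summed to 3716 and 3668 CPM in EV, to 3680 and 3554 CPM in sgZNF146 and to 3841 and 3688 CPM in sgZNF507, in each case for replicate 1 and then replicate 2. The 23 M genes summed to 3269 and 3307 CPM in EV, to 3324 and 3463 CPM in sgZNF146 and to 3165 and 3376 CPM in sgZNF507. The ratio of the M sum to the S sum was therefore lowest in sgZNF507 replicate 1, at 0.824, and highest in sgZNF146 replicate 2, at 0.974. In every group replicate 2 had the lower S sum and the higher M sum, and the ratio was 0.880 and 0.902 in EV, 0.903 and 0.974 in sgZNF146 and 0.824 and 0.915 in sgZNF507. The same order of replicates held without MCM7 and MKI67, the members of each sum with the highest mean CPM over the 6 libraries, with 0.821 and 0.839, 0.828 and 0.902, and 0.770 and 0.853. Both sgZNF146 ratios were above both EV ratios, narrowly (0.903 against 0.902 at the nearest), and the range of sgZNF507 overlapped both other groups.

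**Figure D4:**
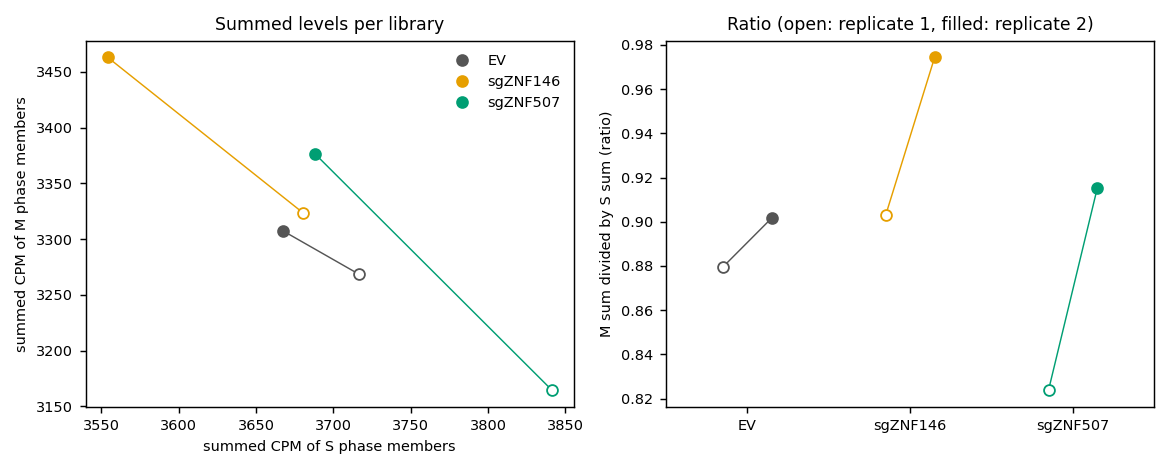
Left, summed CPM of the 23 M genes against that of the 19 S genes, 1 point per library, and right, the ratio of the sums, with open circles for replicate 1, filled circles for replicate 2 and lines that join libraries of a group; both axes are cut to the range of the data. In all 3 groups the filled point lies at a lower S sum and a higher M sum, and the ratios run from 0.824 to 0.974.

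The last comparison took replicate 2 against replicate 1 across the 3 groups. The labels do not say what a replicate number marks, so no treatment is compared here, and depth did not follow the number in all groups, since replicate 1 was the deeper library in sgZNF146 and the shallower in EV and sgZNF507. Of the 42 members 4 passed an adjusted p of 0.05 (edgeR, group as a term), or 9.52%, beside 7.25% of all genes. At an unadjusted p under 0.05 there were 13, of which 9 were higher and 4 lower in replicate 2, beside 19.5% of all genes. Replicate 2 was above replicate 1 in 3 of 3 groups in 10 members, beside 20.3% of all genes, and below in 11, beside 19.3%.

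Of the 4 members called, the 3 that were higher in replicate 2 were M genes and the 1 that was lower was an S gene. UBE2C (ENSG00000175063, chr20:44441215-44445596), the ubiquitin-conjugating enzyme of the anaphase-promoting complex, had 77.5 and 95.1 CPM in EV, 85.0 and 94.3 CPM in sgZNF146 and 80.0 and 90.5 CPM in sgZNF507, for replicates 1 and 2. All 3 replicate 2 libraries were above all 3 replicate 1 libraries, and the log2 fold change was 0.21 ± 0.05 (SE; adjusted p = 0.00183, edgeR). CENPE (ENSG00000138778, chr4:104026506-104119602) had 96.9 and 100.1 CPM in EV, 95.9 and 110.0 CPM in sgZNF146 and 80.1 and 99.6 CPM in sgZNF507, or 0.19 ± 0.05 (adjusted p = 0.00771, edgeR). Its difference was small in EV and widest in sgZNF507. TOP2A (ENSG00000131747, chr17:38544777-38574148) had 375 and 399 CPM in EV, 382 and 420 CPM in sgZNF146 and 349 and 426 CPM in sgZNF507, or 0.17 ± 0.05 (adjusted p = 0.0156, edgeR). CDT1 (ENSG00000167513, chr16:88870197-88875666) had 176 and 172 CPM in EV, 192 and 173 CPM in sgZNF146 and 201 and 176 CPM in sgZNF507, or -0.13 ± 0.04 (adjusted p = 0.0474, edgeR). For TOP2A and CDT1, too, the EV libraries lay closest together. Coordinates are in GRCh37. Of the promoters printed above, that of CDT1 holds E2F cores and no CHR, that of TOP2A CHR words and no E2F core, and that of CENPE neither.

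These calls rested on few libraries. With group as a term, a library whose partner is left out adds nothing to the replicate difference. Leaving out either library of a group is therefore nearly the same fit as leaving out both. UBE2C had an adjusted p of 0.0514 without EV replicate 1 and 0.0502 without EV replicate 2, and passed without any of the other 4. TOP2A did not pass without sgZNF146 replicate 1 (0.0567), sgZNF507 replicate 1 (0.241) or sgZNF507 replicate 2 (0.243). CENPE did not pass without any 1 of the 4 sgZNF146 and sgZNF507 libraries (0.0839 to 0.217), and neither did CDT1 (0.312 to 0.412). With both sgZNF146 libraries left out the number of members called was 2 (UBE2C and HMMR), and 1027 of all genes passed in place of 1596. With both sgZNF507 libraries left out it was 2 (UBE2C and CCNE1), and 980 of all genes passed. With DESeq2 it was 2, UBE2C and TOP2A, and 371 of all genes passed.

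The direction of the 2 blocks over all groups depended less on which library was left out, but the size of the shift was not equal in the groups. Whether the groups differ in this size was not tested. The S genes had a median log2 fold change of -0.04, with 6 of 19 above 0, and the M genes of 0.05, with 18 of 23 above 0, beside 0.0014 and 50.3% over all genes. Leaving out each library in turn gave medians from -0.04 to -0.02 for the S genes and from 0.04 to 0.08 for the M genes. The median log2 deviation from each gene's mean over the 6 libraries hardly moved in EV. From replicate 1 to 2 it went from 0.0029 to -0.0018 for the S genes and from -0.01 to 0.00042 for the M genes. It went from -0.0076 to -0.05 and from -0.0015 to 0.05 in sgZNF146. In sgZNF507 it went from 0.05 to 0.0014 and from -0.05 to 0.04. Of the 10 members above in 3 of 3 groups 7 were M genes, and of the 11 below 8 were S genes. The M genes have a lower median GC content of transcript than the S genes (44.3% against 48.9%), and with GC content and transcript length regressed out the medians were -0.04 and 0.04.

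Neither block was uniform. Among the S genes, the 12 licensing and helicase genes had a median of -0.05 with 10 below 0, whereas the 3 genes of the G1/S cyclins and E2F1 were all above 0. CCNE1 had 26.0 and 32.2 CPM in EV, 23.8 and 26.2 CPM in sgZNF146 and 26.5 and 29.0 CPM in sgZNF507, a log2 fold change of 0.20 ± 0.07 (adjusted p = 0.0548, edgeR). CCNE2, whose gene overlaps others on the opposite strand, had 16.4 and 17.7, 16.0 and 16.9, and 12.6 and 17.3 CPM in the same order, or 0.21 ± 0.08 (adjusted p = 0.116, edgeR). Both cyclin E genes were higher in replicate 2 in all 3 groups, and neither passed. RRM2, the regulated subunit of ribonucleotide reductase, had 0.10 ± 0.04, while its partner RRM1 had -0.08 and TK1 -0.11.

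Among the M genes, the 8 spindle, centromere and chromosome proteins had a median of 0.08 with 7 above 0. HMMR had 39.6 and 44.7 CPM in EV, 41.9 and 41.7 CPM in sgZNF146 and 33.8 and 42.6 CPM in sgZNF507, or 0.17 ± 0.06 (adjusted p = 0.0844, edgeR). The replicate difference of HMMR was thus -0.0065 on the log2 scale in sgZNF146, beside 0.17 in EV and 0.33 in sgZNF507. Whether the groups differ in it was not tested. AURKA went the other way, with a log2 fold change of -0.10 ± 0.05 (adjusted p = 0.206, edgeR) and lower values in replicate 2 in all 3 groups, and so did CDC20, the activator of the anaphase-promoting complex, at -0.06. BUB1B, which shares exons with the readthrough gene BUB1B-PAK6, had 0.10 ± 0.04 (adjusted p = 0.183, edgeR).

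**Figure D5:**
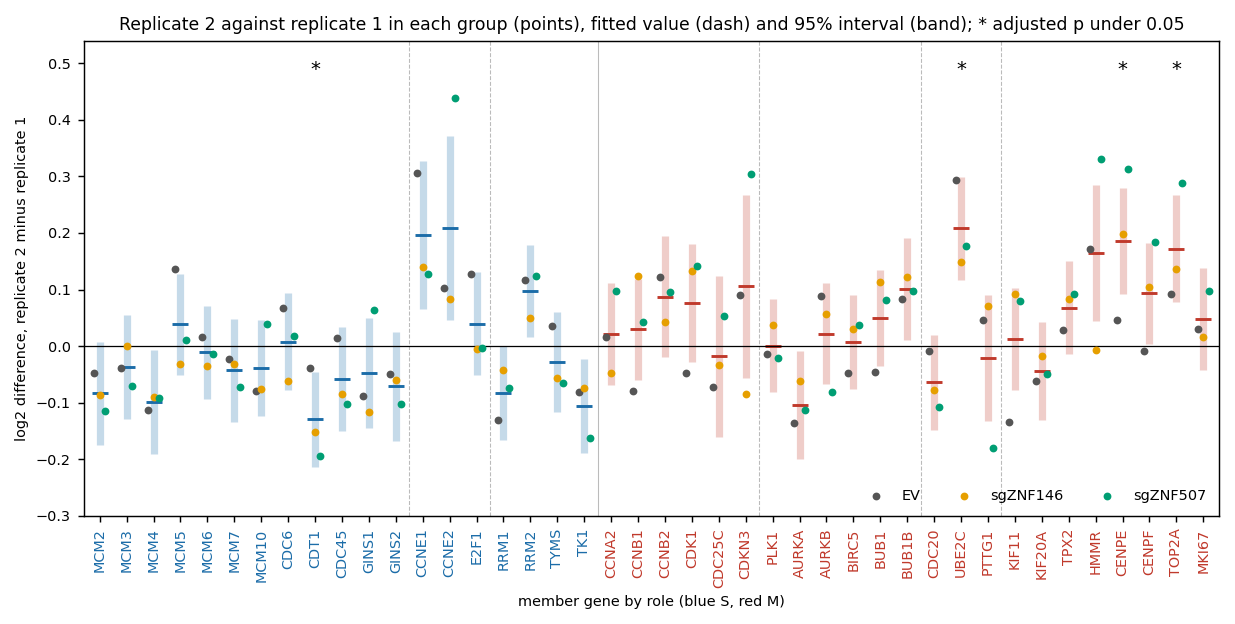
Log2 difference of replicate 2 minus replicate 1 for each member in EV (grey), sgZNF146 (orange) and sgZNF507 (green), with the fitted value (dash) and its 95% interval (band), S genes in blue and M genes in red, and asterisks for an adjusted p under 0.05. CDT1 lies below 0 and UBE2C, CENPE and TOP2A above it in all 3 groups, and CCNE1 and CCNE2 are above it without an asterisk.

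Other genes of the same stages were described from lists kept apart from the 42. In the 3 comparisons between groups none of the 52 other S phase genes tested, the 63 other M phase genes or the 33 cell cycle regulators passed an adjusted p of 0.05 (edgeR). At an unadjusted p under 0.05 there were 1, 1 and 4 of the other S phase genes in sgZNF507 against EV, sgZNF146 against EV and sgZNF507 against sgZNF146, with 2, 2 and 2 of the other M phase genes and 2, 0 and 1 of the regulators. In sgZNF507 against sgZNF146 the other M phase genes had a median log2 fold change of -0.04 with 20 of 63 above 0, and the other S phase genes 0.01 with 28 of 52 above 0. In sgZNF146 against EV 43 of 63 other M phase genes were above 0, with a median of 0.02.

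In replicate 2 against replicate 1, 9 of the 63 other M phase genes passed, 8 of them higher in replicate 2, and the list had a median log2 fold change of 0.04. The 5 largest were CKAP2L (0.28), PIMREG (0.24), CDCA3 (0.23), HJURP, the chaperone that deposits CENP-A (0.22), and ANLN (anillin, 0.19). CKAP2L, a spindle protein, had 35.5 and 37.5 CPM in EV, 33.5 and 41.5 CPM in sgZNF146 and 29.6 and 40.7 CPM in sgZNF507 (adjusted p = 0.00242, edgeR). Of the 52 other S phase genes 5 passed. ORC1 (-0.16), RFC2 (-0.15), CHAF1A (-0.15) and SLBP (-0.14) were lower in replicate 2 and LIG1 (0.15) was higher, and the median of the list was -0.04 with 17 of 52 above 0. ORC1 is a subunit of the origin recognition complex, RFC2 of the clamp loader and CHAF1A of a histone chaperone. The shares that passed were 14.3% and 9.62%, beside the 7.25% of all genes.

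Of the 33 cell cycle regulators 7 passed in replicate 2 against replicate 1, or 21.2%, with 3 higher and 4 lower and a median of -0.01. CDKN2B, an inhibitor of CDK4 and CDK6, had 15.9 and 20.8 CPM in EV, 19.0 and 22.2 CPM in sgZNF146 and 14.9 and 22.2 CPM in sgZNF507, a log2 fold change of 0.39 ± 0.08 (adjusted p = 0.000359, edgeR). E2F2, a factor that activates S phase genes, had 101 and 83.6 CPM in EV, 95.2 and 81.6 CPM in sgZNF146 and 106 and 83.5 CPM in sgZNF507, or -0.28 ± 0.04 (adjusted p = 1.54e-05, edgeR). CDKN1A, which encodes the CDK inhibitor p21, had -0.28 ± 0.08, CCND2 (cyclin D2) -0.27 ± 0.05, and RBL2 (the pocket protein p130) 0.19 ± 0.05. Of the CDK inhibitors that passed, CDKN2B was thus higher and CDKN1A lower in replicate 2. E2F1, the member of the same family as E2F2, had 0.04, with 85.1 and 93.0 CPM in EV, 88.5 and 88.2 CPM in sgZNF146 and 94.3 and 94.1 CPM in sgZNF507.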

How the data were processed

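RNA of 6 HEK293 libraries (EV, sgZNF146 and sgZNF507, 2 replicates each, grouped by their labels) was depleted of ribosomal RNA and sequenced in pairs on a strand-specific kit. The authors clipped the reads, removed ribosomal reads with Bowtie, mapped the rest to hg19 with TopHat2 and counted them per Ensembl gene with featureCounts, and deposited raw gene counts, neither scaled nor pooled. Whether featureCounts used strand is not given in the sources used here, and reads of overlapping genes on opposite strands may be mixed. GENCODE on GRCh37 matched 96.1% of gene identifiers.

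The members and the gene lists were chosen with earlier results of these data known. Counts were tested with edgeR 4.0.16 in R 4.3.3 (filterByExpr, TMM, glmQLFit, glmQLFTest), fitted over all 6 libraries with group as the term, or with group and replicate number for replicate 2 against replicate 1. Adjusted p means Benjamini-Hochberg over the 22010 genes, called below 0.05. SEs and 95% intervals derive from F and its degrees of freedom, an approximation. CPM uses TMM-adjusted library sizes and RPKM the canonical transcript. DESeq2 1.42.0, other scalings and filters, the replicate number as a block and leaving out libraries were alternatives. Named in detail were members past the threshold, the 5 largest log2 fold changes per comparison and the 3 highest and 3 lowest levels in EV; of other lists, at most the 5 largest called per comparison. Any further member was picked with its values in view.

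The labels call the replicates biological duplicates without saying what a number marks. Deviations of replicate 1 from the group mean correlated across the 22010 genes between EV and sgZNF146 (0.138), EV and sgZNF507 (0.176), and sgZNF146 and sgZNF507 (0.145). The numbers were therefore treated as pairing the libraries in the replicate comparison and in the fits with the replicate block. The main fits between groups did not use this pairing. Promoters came from RefSeq on GRCh38.p14, with 1 window per gene. Plots were made in Python 3.11.15 (matplotlib 3.10.9).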

Additional observations from a re-analysis of the deposited data

How the results depend on the processing

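The count of members called in the 3 comparisons between groups was 0 in every alternative run: RLE and upper quartile scaling, nuclear protein-coding genes only, no filter, at least 10 counts in every library, edgeR and DESeq2 on the 4 libraries compared, DESeq2 on 6 libraries, the replicate block in edgeR and in DESeq2, and each library left out. With the replicate block in edgeR, which pairs the libraries by number, the count of members called stayed 0 in each, the smallest adjusted p of a member being 0.0998 (CENPE, sgZNF507 against sgZNF146), while 121, 33 and 196 of all genes passed in sgZNF507 against EV, sgZNF146 against EV and sgZNF507 against sgZNF146, in place of 40, 0 and 38. In replicate 2 against replicate 1 the main fit called 4 members and 1596 of all genes. DESeq2 on 6 libraries called 2 members and 371 genes. With both sgZNF146 libraries left out 2 members and 1027 genes passed, and with both sgZNF507 libraries left out 2 and 980. Without the group term 1 member and 855 genes passed. The other alternatives that left no group with 1 library gave 3 to 5 members. UBE2C passed in 14 of 16 alternatives (adjusted p from 0.000585 to 0.0514), TOP2A in 10 (0.00158 to 0.256), CENPE in 8 (1.56e-05 to 0.217) and CDT1 in 7 (0.00794 to 0.412), all by edgeR or DESeq2. These 16 are not independent, since leaving out either library of a group, or both, gives nearly the same fit of the replicate difference. Single members were followed through the alternatives only where their unadjusted p was under 0.05 in the main fit (edgeR). None of their log2 fold changes changed sign, and the other members were not followed. The medians of sgZNF507 against EV, near 0, did: 0.01 over the S genes became -0.0090 without sgZNF507 replicate 1, and 0.00049 over the M genes became -0.01 without EV replicate 2, -0.03 without sgZNF507 replicate 2 and -0.0036 with the replicate block in edgeR. Removing GC content and transcript length and the choice of length for RPKM were alternatives chosen after seeing the data. With 2 libraries a group, the 95% interval of the median member reached 0.15 either side on the log2 scale, and smaller differences could not be resolved gene by gene.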
